A study of Mus musculus with 10 samples.

Results

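Translation factors are the proteins that bring a ribosome to a messenger RNA and then move it along the message. Their genes were followed here in primary cells of mouse lymphatic endothelium (LECs), the lining of lymph vessels, with and without silencing of Vegfr2, the receptor for vascular endothelial growth factor that is encoded by Kdr. Members were taken by symbol: every deposited gene whose symbol begins with Eif1 to Eif6, Eef1 or Eef2, without Eef1e1, which belongs to the aminoacyl-tRNA synthetase complex. This gave 67 of 16251 genes, and 64 of them passed the filter on low counts. The family was singled out with results of this same contrast known, so its counts are a description and carry no test of the family.

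Poly(A) RNA was sequenced in 10 libraries. In 5 of them, labelled Vegfr2 siRNA, LECs had been given siRNA against mouse Vegfr2 at 50 nM, short duplexes through which a cell destroys transcripts that match them. The other 5 carry the label control, and RNA of both groups was isolated at 48 h. Controls and silenced samples share 1 treatment tag (siRNA knockdown), and the labels name neither a control siRNA nor whether replicates were separate cultures, so p-values measure the spread between these samples only, and that spread may be technical. The title of the series asks whether too little endothelial VEGFR2 moves lymphatic cells toward a blood-cell transcriptional program.

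Library totals ran from 17946483 to 18239260 estimated counts. Kdr was at 1328, 1320, 1280, 1259 and 1431 CPM (a gene's counts per 1e6 counts of its library) in the control libraries and at 191, 196, 200.5, 173 and 167 CPM in the siRNA libraries, a level of 14% of control, with no overlap (exact two-sided permutation test, p = 0.00794, the smallest that 5 against 5 allows). Lymphatic endothelial markers summed to 16370 to 17930 CPM in control and 11070 to 12030 CPM in siRNA libraries. By the rule for calls given below, 6 of the 7 fell and 1, Pdpn, rose. Of 5 pan-endothelial markers, 4 fell and 1, Cdh5, did not pass. By the same rule 35.2% of all tested genes fell and 36.1% rose. Markers of other cells were low: the myeloid list summed to 41.9 to 49.8 CPM in control and 30.1 to 40.5 CPM in siRNA libraries, nearly all of it Cd68, the fibroblast and mural list to at most 12.6 CPM, and the erythroid list was near 0 (3 of 6, 6 of 6 and 1 of 3 genes had a row). The epithelial list (3 of 5 genes with a row) summed to 1.22 to 2.41 CPM in control and 7.68 to 8.73 CPM in siRNA libraries, nearly all of it Krt18 (1.67 ± 0.469 and 8.22 ± 0.383 CPM, SD, n = 5 each), while Epcam and Cdh1 were near 0. The part of these shifts in the values that follow was not tested.

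Translation begins when eIF2, loaded with GTP and the initiator methionyl-tRNA, joins the small ribosomal subunit together with eIF1, eIF1A, eIF3 and eIF5. The eIF4 group (the cap-binding protein eIF4E, the scaffold eIF4G and the helicase eIF4A) recruits this complex to the capped end of the message, and eIF4E-binding proteins compete with eIF4G for eIF4E. eIF2B reloads eIF2 with GTP, and 4 kinases that phosphorylate eIF2 under stress turn eIF2 into an inhibitor of eIF2B, which lowers initiation in general while favouring a few messages such as that of Atf4. During elongation eEF1A delivers aminoacyl-tRNA, eEF2 translocates the ribosome, and eIF5A helps it past difficult peptide stretches.

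Values are CPM scaled to library sizes with the TMM method, so each is a share of the poly(A) RNA of a library. Fewer cells of a type and less RNA per cell cannot be told apart in such data, nor can a change in total RNA per cell be seen. A gene is said to have risen or fallen where its Benjamini-Hochberg adjusted p, over all 12161 tested genes, was under 0.05 in edgeR's quasi-likelihood test. By this rule, 40 of the 64 tested members were called higher, 11 lower and 13 neither. Among all tested genes 36.1% were called higher, 35.2% lower and 71.3% in either direction. Because the family was picked with this contrast in view, nothing is read from the difference between its shares (62.5% higher, 17.2% lower) and these.

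Values in brackets after a gene with no unit are log2 fold changes. The median log2 fold change, siRNA against control, was 0.15 over the tested members and -0.00189 over all tested genes. Changes were mostly small: the median absolute log2 fold change was 0.19 in the family and 0.22 over all genes, and 6 members passed a fold of 1.5, a size reached by 14.5% of all genes. In 45 members (70.3% of those tested) the 5 control and 5 siRNA values did not overlap, against 57.0% of all tested genes. Nothing is read from this difference either. Members together took 2.059% to 2.136% of a control library's counts and 2.145% to 2.206% of an siRNA library's. The 3 members under the filter were Eef1a2, the eEF1A form of muscle and neurons, and Eef1akmt3, each with at most 1 count in any library, and the read-through gene Eef1akmt4-ece2.

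**Figure D1:**
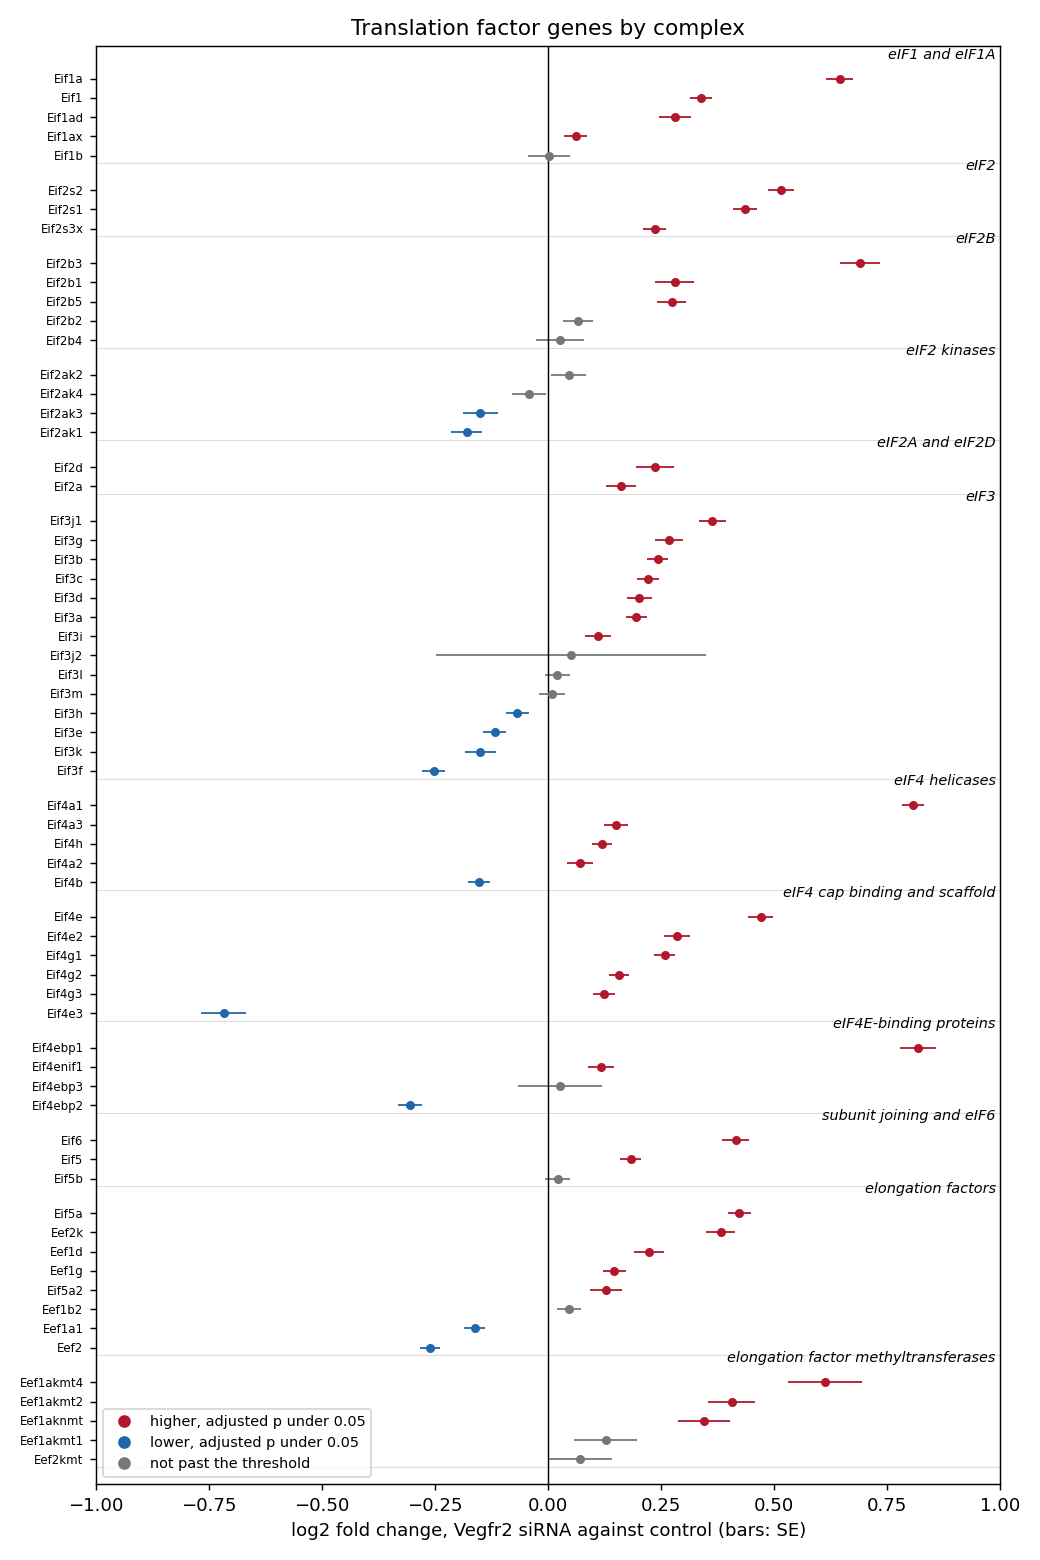
Each point is the log2 fold change of 1 of the 64 tested genes (x axis, Vegfr2 siRNA against control, bars are the standard error of the fit), grouped by complex on the y axis, with red for higher, blue for lower and grey for not past an adjusted p of 0.05. All 3 eIF2 subunits lie to the right of 0, both called eIF2 kinases lie to the left, and eIF3 has genes on either side.

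Of the 5 genes grouped by symbol with the start-codon selection factors eIF1 and eIF1A, 4 rose and 0 fell. Eif1, which keeps the scanning ribosome from starting at poor start codons, rose from 504 ± 17.9 to 636 ± 10.3 CPM (mean ± SD, n = 5 in each group; log2 fold change 0.34, SE 0.0243, adjusted p = 2.95e-16). The reads of Eif1 were divided between genes in all 10 libraries. Eif1a, 1 of the genes for eIF1A, was at 91.8, 88.8, 90.0, 88.9 and 87.2 CPM in control libraries. In the siRNA libraries Eif1a was at 130.2, 142, 139, 140.2 and 147 CPM (log2 fold change 0.64, SE 0.0298, adjusted p = 8.61e-23). Every siRNA library lay above every control library, by a margin many times the spread within a group. The other eIF1A gene, Eif1ax, moved far less (0.06, adjusted p = 0.0356) and lost its call under several alternative fits, with upper-quartile factors among them (adjusted p = 0.12). Eif1b, an eIF1 paralog, was at 26.2 ± 1.37 and 26.2 ± 0.807 CPM and did not pass (adjusted p = 0.987). Eif1ad, placed in this group by its symbol, rose (0.28, adjusted p = 1.88e-09) and shares 16.7% of its exon bases with Banf1.

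All 3 subunits of eIF2 rose, and the groups did not overlap for any of them. Eif2s1 encodes the alpha subunit, the one the stress kinases phosphorylate, and stood at 131, 127, 129.9, 128 and 130.1 CPM in control libraries. In siRNA libraries Eif2s1 was at 171, 176, 174, 168 and 184 CPM (log2 fold change 0.44, SE 0.0267, adjusted p = 1.42e-18). Eif2s2, the beta subunit, on chromosome 2 (154871410 to 154892906), was at 178, 166, 172, 167 and 172 CPM in control libraries. With siRNA Eif2s2 was at 229, 251, 252, 234 and 256 CPM (log2 fold change 0.51, SE 0.0288, adjusted p = 7.96e-19). Its lowest siRNA library stood above its highest control library, and siRNA libraries 1 and 4 were the lower ones of their group for both subunits. Eif2s3x, the gamma subunit that binds GTP and the initiator tRNA, rose less, from 246 ± 1.88 to 290.0 ± 11.3 CPM (0.24, adjusted p = 4.71e-11).

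Of the 5 subunits of eIF2B, the exchange factor that reloads eIF2, 3 rose and 0 fell. Eif2b3, which encodes the gamma subunit of the catalytic subcomplex (chromosome 4, 117019399 to 117086852), had the largest change. It was at 24.6, 23.6, 24.3, 24.6 and 22.4 CPM in control and at 38.2, 38.4, 41.0, 38.3 and 36.9 CPM in siRNA libraries (log2 fold change 0.69, SE 0.0442, adjusted p = 6.06e-18), and the groups lay far apart. Eif2b5, the catalytic epsilon subunit, was at 61.5, 65.4, 66.1, 63.5 and 66.0 CPM in control and 77.0, 81.8, 78.1, 73.8 and 78.9 CPM in siRNA libraries (log2 fold change 0.27, SE 0.033, adjusted p = 9.24e-10), again without overlap. Eif2b1, the alpha subunit of the regulatory subcomplex, rose with a log2 fold change of 0.28. Eif2b2 and Eif2b4, the beta and delta subunits of that subcomplex, did not pass (0.07 and 0.03, adjusted p = 0.0722 and 0.675). Eif2b2 passed without control library 3, siRNA library 1 or siRNA library 5 (adjusted p = 0.0468, 0.0398 and 0.0485).

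None of the 4 eIF2 kinase genes was called higher: 2 fell and 2 did not pass. Eif2ak1 encodes HRI, which responds to heme shortage and mitochondrial stress, and was at 56.5, 58.8, 58.5, 57.7 and 57.6 CPM in control libraries. With siRNA Eif2ak1 was at 50.5, 51.3, 52.5, 51.8 and 48.9 CPM, all under the lowest control (log2 fold change -0.18, SE 0.0341, adjusted p = 9.62e-06). It shares 15.2% of its exon bases with other annotated genes. Eif2ak3, which encodes the endoplasmic reticulum kinase PERK, was at 47.6, 49.8, 46.0, 45.4 and 46.5 CPM in control and 44.1, 43.6, 40.2, 42.4 and 41.7 CPM in siRNA libraries (log2 fold change -0.15, SE 0.0384, adjusted p = 0.000622). These groups too were apart, though by little.

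Eif2ak2 encodes PKR, the kinase activated by double-stranded RNA. It was at 189.6, 169.9, 188, 192 and 178 CPM in control and 184, 192, 178, 188 and 206 CPM in siRNA libraries, widely overlapping (log2 fold change 0.05, SE 0.0387, adjusted p = 0.302). Eif2ak4, which encodes GCN2, the sensor of uncharged tRNA, was at 45.0, 43.1, 42.6, 44.8 and 42.3 CPM in control and 42.7, 40.9, 42.0, 42.4 and 43.6 CPM in siRNA libraries, also overlapping (log2 fold change -0.04, SE 0.0376, adjusted p = 0.32). Eif2a and Eif2d, which encode factors that can deliver initiator tRNA outside the main route, both rose (0.16 and 0.24). These are transcript levels, and the phosphorylation of eIF2 itself was not measured.

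**Figure D2:**
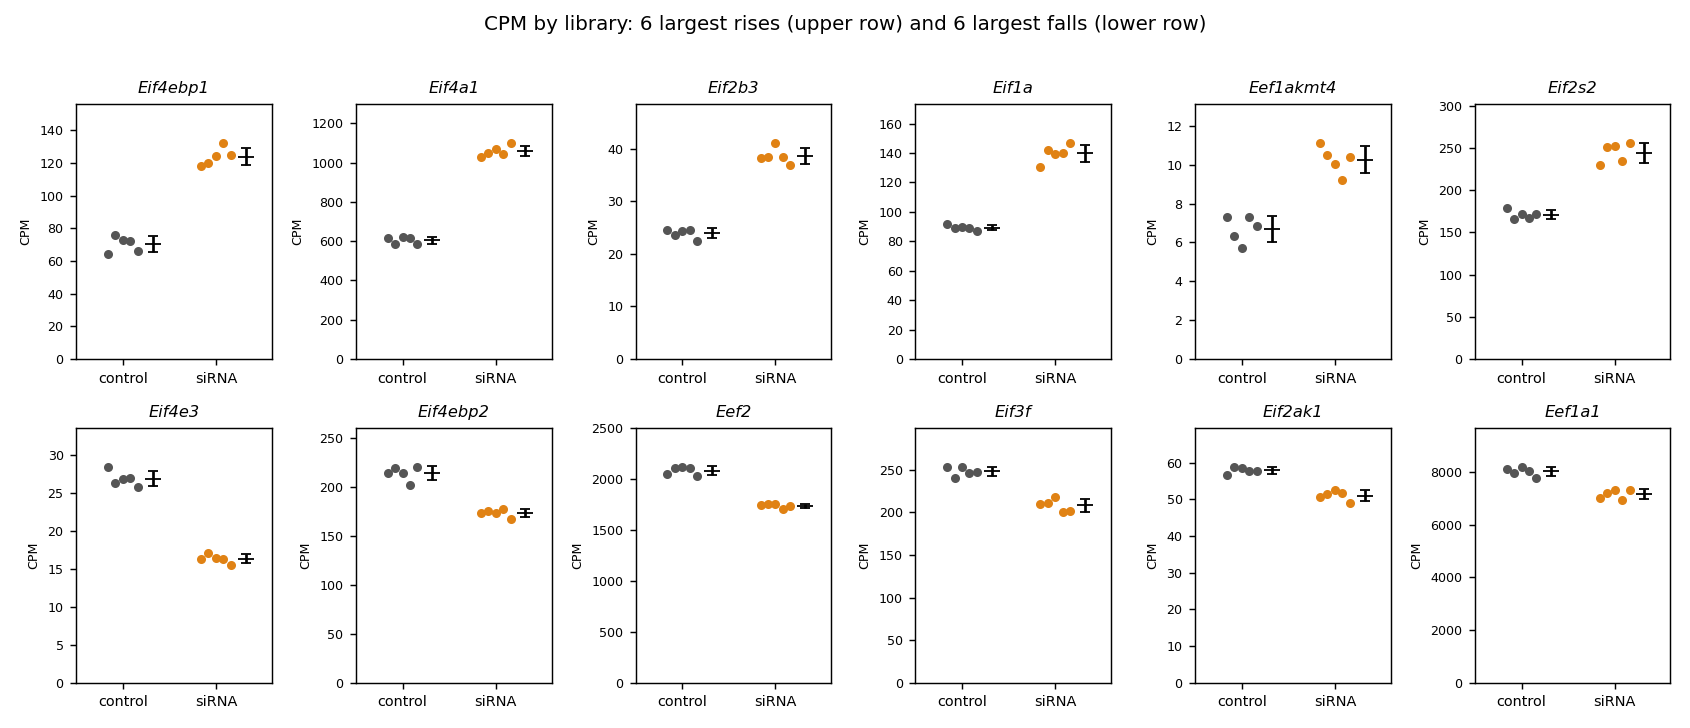
Each panel plots CPM (y axis, from 0) in the 5 control (grey) and 5 Vegfr2 siRNA (orange) libraries for 6 members that rose most and 6 that fell most, with the mean and SD of each group as black bars. In all 12 panels the groups do not overlap, which choosing called members by size of change favours. Among all tested genes 57.0% do not overlap either.

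The 14 eIF3 genes split: 7 rose, 4 fell and 3 did not pass. eIF3 is the large scaffold on which the other initiation factors assemble. Genes for the conserved core subunits a, b, c, g and i all rose. So did Eif3j1, which encodes a loosely attached subunit and shares 21.7% of its exon bases with Gm47314 and Spg11, and whose reads were divided between genes in all 10 libraries, and Eif3d, a subunit that can bind the cap of some messages and shares 32.9% with Gm17638 on the opposite strand. Eif3a, the largest subunit, was at 444, 424, 434, 435 and 448 CPM in control libraries. In siRNA libraries Eif3a was at 489.9, 508, 499.7, 486 and 517 CPM (log2 fold change 0.19, SE 0.0238, adjusted p = 1.16e-09), all above the highest control.

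Genes that fell encode subunits e, f, h and k, which lie outside the core shared with budding yeast. Eif3f, one of the pair of subunits with an MPN domain (chromosome 7, 108934415 to 108941942), was at 252, 241, 253, 247 and 247 CPM in control and 209.7, 210.5, 218, 200.4 and 201 CPM in siRNA libraries (log2 fold change -0.25, SE 0.0257, adjusted p = 9.17e-12), without overlap. Eif3k fell with a log2 fold change of -0.15 (adjusted p = 1.40e-04), but its control library 5, at 82.0 CPM, lay within the siRNA range of 81.1 to 84.9 CPM. Eif3e fell by 0.12 and Eif3h by 0.07 on the log2 scale (adjusted p = 7.1e-05 and 0.0145), and the Eif3h call is lost without control library 2 or control library 3. Eif3d lies outside that core as well, and it rose (0.20, adjusted p = 1.59e-08), so genes outside the core went both ways. Eif3l and Eif3m, also outside it, did not pass (0.02 and 0.01, adjusted p = 0.537 and 0.796). The subunits were sorted into core and others after their values were seen. Eif3j2, a near copy of Eif3j1 at about 1 CPM whose reads the deposited counts divide between genes, also did not pass.

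**Figure D3:**
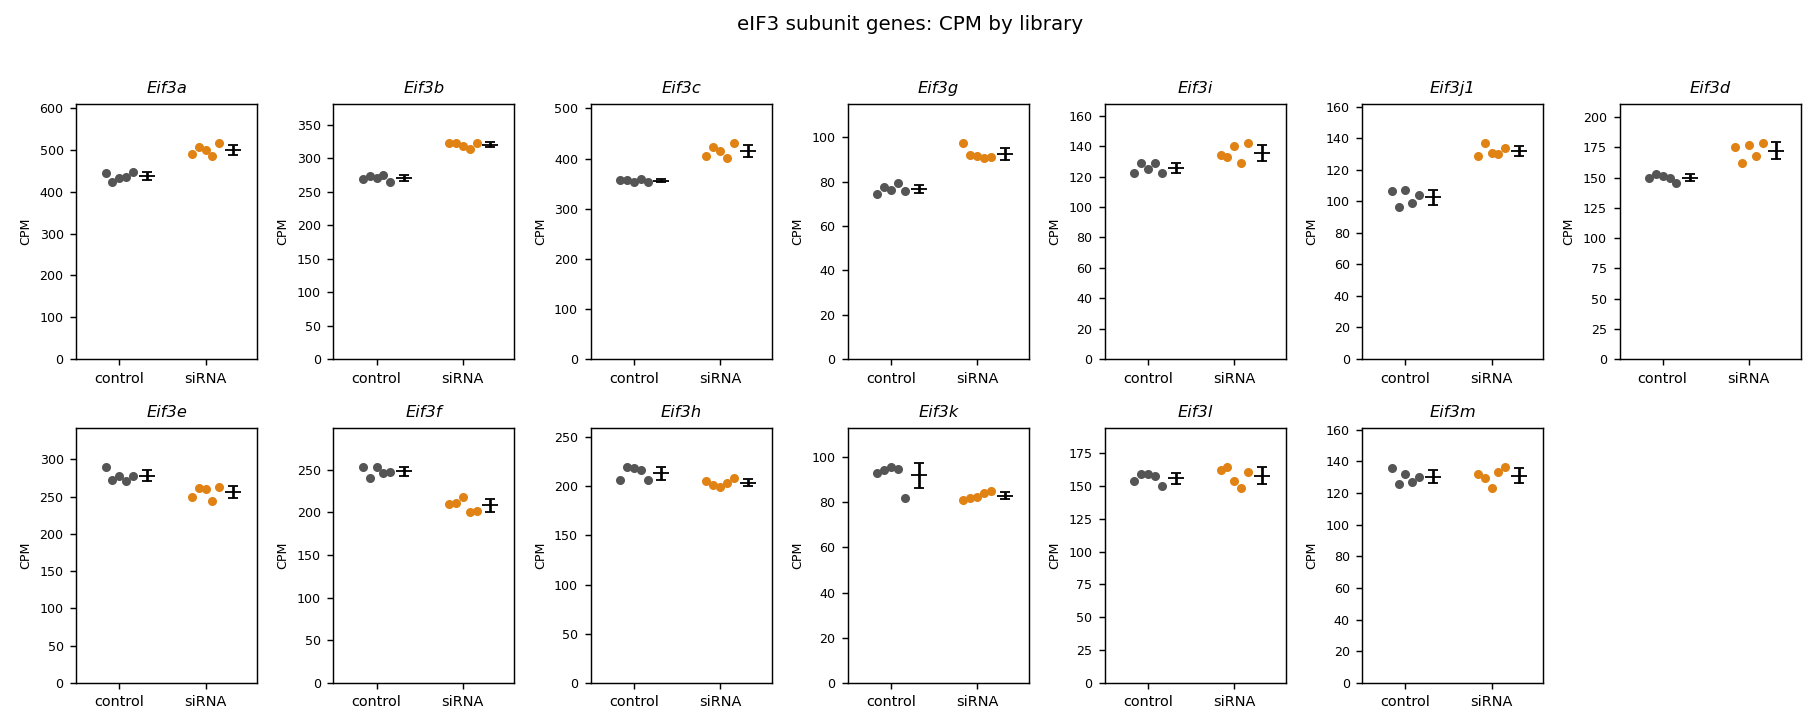
CPM (y axis, from 0) of 13 eIF3 genes in the 5 control (grey) and 5 siRNA (orange) libraries, with mean and SD as black bars. The upper row holds the genes that rose, and in the lower row Eif3e, Eif3f, Eif3h and Eif3k fell while Eif3l and Eif3m did not pass.

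Among the eIF4 helicase genes 4 rose and 1 fell. Eif4a1 encodes the main RNA helicase that unwinds the start of the message (chromosome 11, 69666936 to 69672423) and stood at 618, 586, 621, 618 and 584 CPM in control libraries. With siRNA Eif4a1 was at 1029, 1051, 1068, 1046 and 1100 CPM (log2 fold change 0.81, SE 0.0243, adjusted p = 2.33e-29). The lowest siRNA library was far above the highest control library. Its paralog Eif4a2 was called higher by little (0.07, adjusted p = 0.0284), with overlapping groups. That call was lost without control library 4 (0.05, adjusted p = 0.141), and also under upper-quartile scaling (adjusted p = 0.0977). Per kilobase of exon, the ratio of Eif4a1 to Eif4a2 was 5.97 ± 0.402 in control and 9.94 ± 0.372 in siRNA libraries (SD, n = 5 each). The exon-junction helicase Eif4a3 and the helicase cofactor Eif4h rose (0.15 and 0.12), and the other cofactor gene, Eif4b, fell (-0.15, adjusted p = 2.53e-07).

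For cap binding and scaffolding, 5 of 6 genes rose and 1 fell. Eif4e, the cap-binding protein itself, was at 96.7, 94.9, 99.8, 97.6 and 98.9 CPM in control and 134, 138, 134, 131 and 138 CPM in siRNA libraries (log2 fold change 0.47, SE 0.0275, adjusted p = 2.92e-19). The groups were well apart. Eif4g1, the main scaffold, was at 580.4, 594, 575, 587 and 586 CPM in control and 689, 718, 696, 676 and 715 CPM in siRNA libraries (log2 fold change 0.26, SE 0.023, adjusted p = 2.19e-13), again apart. Eif4e2, a cap-binding homolog linked to repression of messages, rose (0.28), as did the scaffolds Eif4g2 and Eif4g3 (0.16 and 0.12).

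Eif4e3, an atypical cap-binding homolog (chromosome 6, 99621879 to 99692873), went the other way and had the largest fall of the family. It was at 28.5, 26.4, 26.8, 27.1 and 25.9 CPM in control libraries. In siRNA libraries it was at 16.3, 17.1, 16.5, 16.4 and 15.5 CPM (log2 fold change -0.72, SE 0.0501, adjusted p = 1.05e-16), with no overlap. Gm20696 on the same strand shares 14.8% of its exon bases. The per-kilobase ratio of Eif4e to Eif4e3 went from 1.78 ± 0.0783 to 4.06 ± 0.184 (SD, n = 5 each).

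The genes of the eIF4E-binding proteins moved in opposite directions. Eif4ebp1, which encodes 4E-BP1 (chromosome 8, 27260327 to 27275656), was at 64.2, 75.9, 73.0, 72.5 and 66.1 CPM in control libraries. With siRNA it was at 118, 119.7, 124, 132 and 125 CPM, the largest rise of the family (log2 fold change 0.82, SE 0.0395, adjusted p = 1.66e-15). Eif4ebp2, which encodes 4E-BP2, was at 214, 219, 214, 202 and 220.1 CPM in control and 173, 175, 173, 178 and 167 CPM in siRNA libraries (log2 fold change -0.31, SE 0.0263, adjusted p = 7.73e-14). Neither gene had overlapping groups. Per kilobase of exon, the ratio of Eif4ebp1 to Eif4ebp2 was 0.954 ± 0.0787 in control libraries (range 0.869 to 1.04, SD, n = 5). In siRNA libraries it was 2.07 ± 0.0904 (range 1.98 to 2.17, SD, n = 5). The size of such ratios depends on the annotated exon lengths (1997 and 5784 bases here), which were the same for both groups. What is read is therefore the change between groups, not which gene has more transcripts. Eif4ebp3 was low and did not pass (0.03, adjusted p = 0.812), with 67.3% of its exon bases shared with another gene, and Eif4enif1, the shuttling protein that carries eIF4E into the nucleus, rose (0.12). All pairs of genes whose ratios are given here, Eef2 and Eef2k among them, were chosen after their values were seen.

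Eif5, which triggers GTP hydrolysis by eIF2, rose (0.18, adjusted p = 3.94e-09), and Eif5b, which joins the large ribosomal subunit, did not pass (0.02, adjusted p = 0.515). Eif6 encodes the factor that holds the large subunit apart from the small one until it is mature. It was at 88.5, 94.3, 94.2, 96.1 and 87.2 CPM in control and 122, 121, 124, 127 and 119.7 CPM in siRNA libraries (log2 fold change 0.41, SE 0.03, adjusted p = 3.5e-16), and the groups were well apart.

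In elongation the most abundant factors fell while others rose: 5 of 8 tested genes were higher, 2 lower and 1 did not pass. Eef1a1, which encodes eEF1A (chromosome 9, 78478453 to 78481724), was at 8110, 7968, 8196, 8057 and 7779 CPM in control libraries. In siRNA libraries Eef1a1 was at 7011, 7223, 7326, 6948 and 7313 CPM (log2 fold change -0.16, SE 0.0229, adjusted p = 3.3e-08), all under the lowest control. Eef1a1 has many near-identical pseudogenes, and its count was fractional in 6 libraries, so part of its reads was divided between genes. Eef2, the translocase (chromosome 10, 81176631 to 81182509), was at 2052, 2105, 2119, 2110 and 2026 CPM in control and 1742, 1751, 1751, 1704 and 1740 CPM in siRNA libraries (log2 fold change -0.26, SE 0.0221, adjusted p = 4.32e-14), without overlap.

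Eef2k encodes the kinase that inactivates eEF2. It was at 76.1, 76.6, 70.0, 74.7 and 74.7 CPM in control and 98.7, 102, 95.2, 94.8 and 94.4 CPM in siRNA libraries (log2 fold change 0.38, SE 0.0314, adjusted p = 1.89e-14), well apart. The per-kilobase ratio of Eef2 to Eef2k went from 63.0 ± 3.03 to 40.3 ± 1.15 (SD, n = 5 each). Eif5a (chromosome 11, 69916712 to 69921958), the factor that carries the amino acid hypusine, was at 415, 421, 429, 425 and 391 CPM in control and 552, 542, 556, 579.8 and 559.9 CPM in siRNA libraries (log2 fold change 0.42, SE 0.0251, adjusted p = 5.26e-19). Its groups did not overlap either, but its reads were divided between genes in all 10 libraries. Its paralog Eif5a2 rose by less (0.13). Of the exchange-factor genes that reload eEF1A, Eef1d and Eef1g rose (0.22 and 0.15) and Eef1b2 did not pass (0.05, adjusted p = 0.126), though it did without control library 3 (0.06, adjusted p = 0.04) or siRNA library 2 (0.06, adjusted p = 0.0459).

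Among 5 tested genes for methyltransferases that modify elongation factors, 3 rose and 2 did not pass. Eef1akmt4 was at 7.33, 6.34, 5.72, 7.29 and 6.84 CPM in control and 11.1, 10.5, 10.0, 9.22 and 10.4 CPM in siRNA libraries (log2 fold change 0.61, SE 0.0812, adjusted p = 8.67e-09). The groups did not overlap, but 31.7% of its exon bases are shared with other genes, the read-through gene Eef1akmt4-ece2 among them, which had 39.1 estimated counts in siRNA library 3, 6.88 in siRNA library 5 and 0 elsewhere. Eef1akmt2 and Eef1aknmt rose from low levels (0.41 and 0.34), and Eef1akmt1 and Eef2kmt did not pass (0.13 and 0.07). Eef1akmt1 passed without control library 3 (0.19, adjusted p = 0.015).

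Control levels per kilobase of exon covered a wide range. Lengths are those of all annotated exons of a gene merged, not of the transcripts in these cells. The SDs hold the spread between libraries and no error of length, so the order of genes close in level is uncertain. Eef1a1 was highest at 4472 ± 88.7 CPM per kb (SD, n = 5), followed by Eef2 at 674 ± 13.2, Eif1 at 381 ± 13.6, Eif4a1 at 341 ± 10.5 and Eef1g at 207 ± 6.90 CPM per kb, each apart from its neighbour by more than their SDs. Eif3e followed at 185 ± 4.94 and Eif5a at 175 ± 6.34 CPM per kb, which differed by less than their summed SDs. In siRNA libraries Eif4a1, at 597 ± 15.3 CPM per kb, stood above Eef2 at 562 ± 6.30 CPM per kb. The eIF2 kinases were between 6.0 CPM per kb for Eif2ak4 and 42.6 CPM per kb for Eif2ak2, and Eif2b3, at 5.94 CPM per kb, was the lowest of the eIF2B genes.

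**Figure D4:**
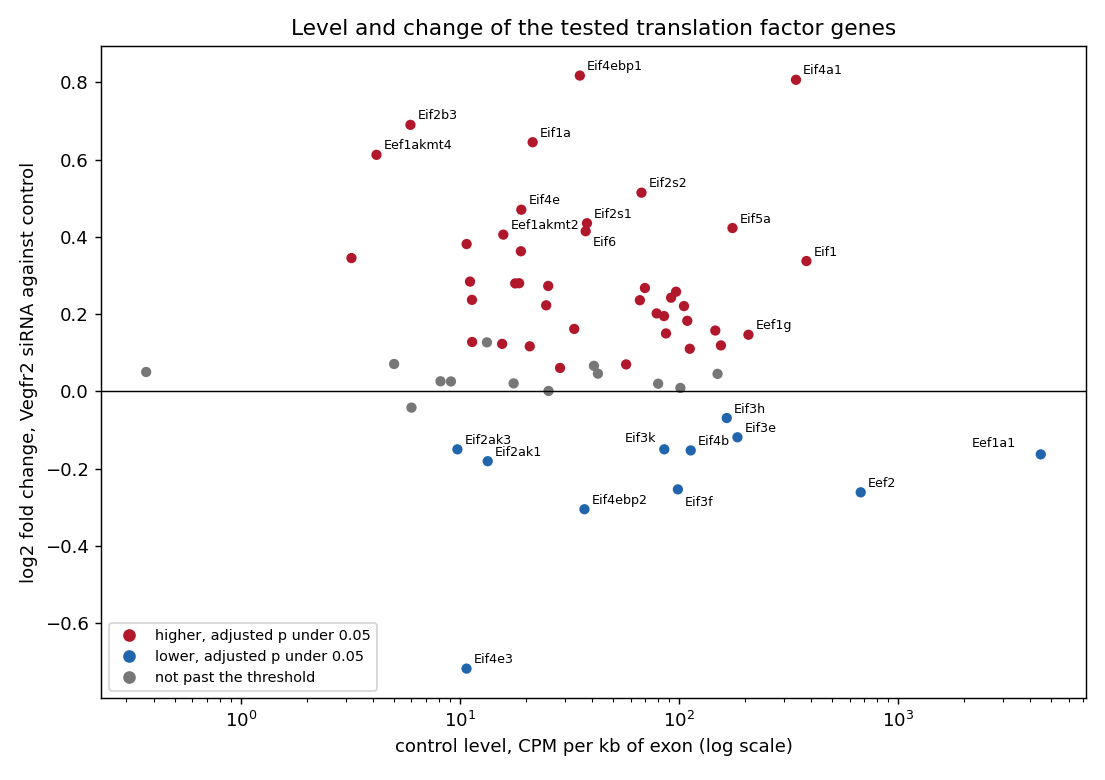
Each point is 1 tested member, with its control level in CPM per kb of exon (x axis, log scale) against its log2 fold change (y axis), red for higher, blue for lower and grey for not past an adjusted p of 0.05. Eef1a1 and Eef2, the highest by level, lie under 0, and Eif4ebp1, Eif4a1 and Eif4e3 lie farthest from it.

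Promoter sequences show a feature that the choice by symbol did not use. CACGTG, the palindromic word known as the E-box that MYC, USF and the TFEB group bind, was searched on both strands in the 250 bases before to 50 after each annotated start, in RefSeq sequences of GRCm38.p6. It was in 14 of the 50 tested members with an entry (28.0%), against 11.8% of the 9763 tested genes with an entry, where a gene with several starts counts if any of its windows holds the word. Of all 32851 single windows 7.15% hold it. Of those 14 members 10 rose, 3 fell and 1 did not pass, while 40 of all 64 tested members rose. The median log2 fold change was 0.226 in members with the word and 0.136 in members with an entry but without it. Eef1akmt4-ece2, which is under the filter, has the same window as Eef1akmt4 and was not counted. Among all tested genes with an entry, 44.6% of those with the word and 35.4% of those without were called higher, and 30.4% and 35.4% were called lower. The word was chosen after the values were seen, and a match is no evidence that a factor binds there.

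These windows show the word, in capitals, for 4 of the 10 members with it that rose, from the scaffold, helicase and elongation groups, and for all 3 that fell, so that both directions can be seen. Eif5a has several annotated starts, and 1 of its windows is shown.
Eif4a1, chr11:69672580-69672639, minus strand: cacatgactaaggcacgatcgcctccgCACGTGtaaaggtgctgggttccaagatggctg
Eif4g1, chr16:20672646-20672705, plus strand: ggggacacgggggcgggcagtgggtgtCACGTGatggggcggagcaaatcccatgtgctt
Eif5a, chr11:69921428-69921487, minus strand: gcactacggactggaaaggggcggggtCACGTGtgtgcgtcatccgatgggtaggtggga
Eef2k, chr7:120842773-120842832, plus strand: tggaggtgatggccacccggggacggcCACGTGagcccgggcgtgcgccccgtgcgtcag
Eef2, chr10:81176561-81176620, plus strand: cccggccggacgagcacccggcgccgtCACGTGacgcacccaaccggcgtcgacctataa
Eif3f, chr7:108934320-108934379, plus strand: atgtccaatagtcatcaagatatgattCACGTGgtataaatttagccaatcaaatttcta
Eif3k, chr7:28981900-28981959, minus strand: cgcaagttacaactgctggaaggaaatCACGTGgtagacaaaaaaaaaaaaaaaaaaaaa
The word begins 189 bases before the start in Eif4a1, 54 in Eif4g1, 74 in Eif5a and 31 in Eef2k. In the genes that fell it begins 43 bases before the start in Eef2, 68 in Eif3f and 44 in Eif3k.

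A C followed by at least 4 pyrimidines at the start, the 5′ terminal oligopyrimidine (TOP) pattern that ties a message to mTORC1, was at the annotated start of 2 of the 50 tested members (4.0%, against 2.91% of tested genes with an entry and 2.51% of single windows). They are shown with the pyrimidine run in capitals and the start as its first base, because one rose and one fell.
Eif2s3x, chrX:94212632-94212661, minus strand: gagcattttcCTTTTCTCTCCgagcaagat
Eif3f, chr7:108934405-108934434, plus strand: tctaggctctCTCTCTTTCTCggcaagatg
Eif2s3x rose and Eif3f fell. Annotated starts are single positions, and a start a few bases off hides the pattern. Members without a match here may therefore carry it, and no direction is read from these 2. TGATGNAA, the composite pattern bound by ATF4 and CEBP dimers, was in the promoters of 2 of the 50, Eef2k and Eif2s3x (4.0%, against 2.66% of tested genes with an entry and 3.97% of single windows). Both rose, and among all tested genes with an entry 36.9% of those with the word and 36.4% of those without were called higher.

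GTAAAGA, a 7-base word found in an earlier analysis of these data to go with lower levels when it lies in a 3′ UTR, was looked up because such words can mark off-target matches of an siRNA. The sequence of the siRNA is not given in the sources used here. The word was in 6 of 63 members with a 3′ UTR of at least 50 bases (9.52%), against 12.0% of the 11792 tested genes with one. Of the carriers among all tested genes 324 rose, 756 fell and 338 did not pass, and of the genes without the word 3962 rose, 3417 fell and 2995 did not pass. Because the word was found by its going with lower levels in these same data, these counts restate how it was chosen. Of the 6 members, 4 rose (Eif1ax, Eif2b5, Eif3j1 and Eif4g3) and 2 fell (Eif4e3 and Eif2ak1). The median log2 fold change was 0.0917 in these 6 and 0.157 in the other members with such a 3′ UTR. Sites of the 2 that fell, from GENCODE M21, have the word in capitals.
Eif4e3: ttgcactctGTAAAGAattctttgtcc
Eif2ak1: agaaaacctatGTAAAGActtaaaaggac
In Eif4e3 the word begins at base 10 of the 3′ UTR and in Eif2ak1 at base 143. Its part in the fall of either gene was not tested. Sites of the 4 members that rose are not shown.

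Partner genes of these factors were read from 5 lists, chosen with earlier results of these data known. Among all tested genes 36.1% were called higher and 35.2% lower, and nothing is read from differences between the lists and these shares. In the eIF2 phosphatase and ATF4 list 8 of 12 genes rose, 3 fell and 1 did not pass, with a median log2 fold change of 0.17. Atf4, the transcription factor whose message is favoured when eIF2 is phosphorylated, was at 138, 128, 136, 143 and 126 CPM in control and 242, 244, 252, 254 and 269.6 CPM in siRNA libraries (log2 fold change 0.91, SE 0.0324, adjusted p = 1.97e-20). Its target Ddit3 rose from 11.5 ± 0.804 to 21.6 ± 1.95 CPM (0.91, adjusted p = 1.6e-16). Ppp1r15a, the stress-induced subunit of the eIF2 phosphatase, was at 28.6, 29.0, 27.4, 27.7 and 30.2 CPM in control and 44.9, 46.8, 46.7, 47.7 and 45.9 CPM in siRNA libraries (log2 fold change 0.70, SE 0.0404, adjusted p = 1.9e-19). All 3 had no overlap between groups, and Trib3, another ATF4 target, rose as well (0.37).

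In the list of cap-binding, scanning and poly(A) partners 15 of 22 genes rose, 3 fell and 4 did not pass (median 0.15). Pdcd4, an inhibitor of the eIF4A helicase, was at 42.6, 43.1, 43.9, 45.6 and 49.0 CPM in control and 28.8, 25.3, 26.9, 24.6 and 22.5 CPM in siRNA libraries (log2 fold change -0.81, SE 0.051, adjusted p = 8.89e-16). Pdcd4 thus fell where Eif4a1 rose, and neither had overlapping groups. Mknk2, a kinase of eIF4E, fell from 562 ± 23.8 to 376 ± 10.9 CPM (-0.58, adjusted p = 2e-22). Pabpc1, the poly(A)-binding protein that contacts eIF4G, rose from 679.9 ± 14.8 to 792 ± 15.1 CPM (0.22, adjusted p = 1.74e-11), and Pabpc4 and Larp1, a regulator of TOP messages, rose too (0.45 and 0.44).

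Of the 11 genes of mTORC1 and S6 kinase input, 4 rose and 7 fell (median -0.0959). Deptor, an inhibitor of mTOR, fell from 8.59 ± 0.377 to 4.45 ± 0.513 CPM (-0.95, adjusted p = 1.33e-12), and Rptor, the mTORC1 scaffold, rose (0.36), as did Akt1s1, an mTORC1 inhibitor (0.34). Rps6 fell from 24.6 to 15.75 CPM (-0.64), but its reads were divided between genes. These values may therefore hold only part of its reads. In the list of elongation partners and factor modification 12 of 17 rose, 2 fell and 3 did not pass (median 0.15). Dph1 and Dph5, enzymes that build diphthamide on eEF2, rose (0.79 and 0.80), as did Efl1, which helps release eIF6 from the large subunit (0.43), while the abundant Tpt1, which binds eEF1A and its exchange factor, fell (-0.36).

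Of 5 termination and recycling genes 4 rose and 1 fell (median 0.20). Etf1, the release factor that reads stop codons, rose from 209.7 ± 3.29 to 371 ± 12.7 CPM (log2 fold change 0.82, SE 0.0253, adjusted p = 4.5e-29). Abce1, which splits the terminated ribosome, rose from 179 ± 6.23 to 244 ± 4.96 CPM (0.45, adjusted p = 2.16e-19), and Gspt1, the GTPase partner of Etf1, and N6amt1, which methylates it, rose by less (0.20 and 0.19).

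**Figure D5:**
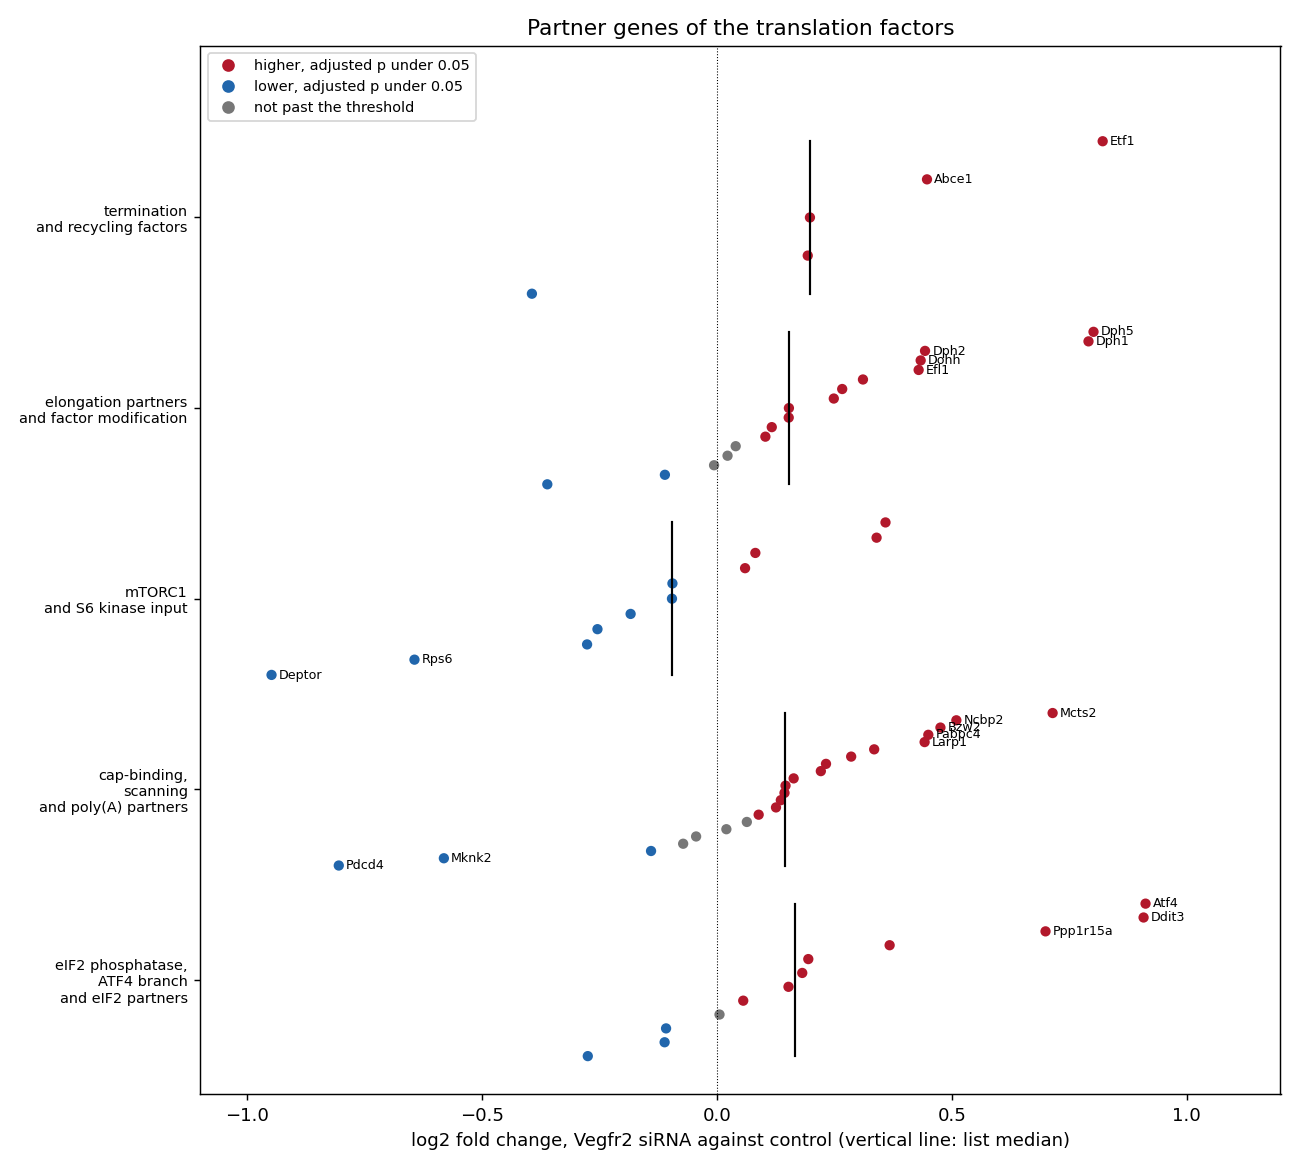
Each point is the log2 fold change (x axis, Vegfr2 siRNA against control) of 1 gene of the 5 partner lists (y axis), red for higher, blue for lower and grey for not past an adjusted p of 0.05, with the list median as a vertical line. The mTORC1 and S6 kinase list is the only one of the 5 with a median under 0. It holds inhibitors of mTORC1 beside its parts, so that median gives no direction of mTORC1 input.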

How the data were processed

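RNA was captured with oligo(dT) beads and fragmented, per the labels' protocols. Values in the deposited table are the authors' expected counts per gene and library, not normalized, of which 10.5% to 11.3% of genes per library are fractional. HISAT2 2.2.1, Bowtie2 2.4.5, RSEM 1.3.1 and GRCm38.p6 are named per the submitters' processing notes. The sources used here give neither their roles nor the annotation and strand setting, so reads of overlapping and antisense genes cannot be told apart.

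Rounded expected counts entered edgeR 4.0.16 under R 4.3.3 (filterByExpr, minimum count 10, TMM factors, robust quasi-likelihood fit on group, Benjamini-Hochberg threshold 0.05). This left 12161 genes, with 4090 under the filter. All printed adjusted p-values come from that fit. Library pairs within a group were more unlike than sampling noise allows (chi-square over degrees of freedom from 1.50 to 3.47 in 20 pairs). Exon lengths and overlaps came from GENCODE M21, gene positions and promoters from RefSeq GRCm38.p6. Promoter entries matched 52 of the 67 members. Counts of 10 members were fractional in at least 1 library. Those of Eif1 and Eif5b were so in all 10 libraries, of Eef2kmt in 9 and of Eif2ak2 in 7.

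Members and lists were chosen with earlier results of these data known. Values by library are given for the 6 members that rose most and the 6 that fell most among those called with a mean of at least 5 CPM, and for fixed members, and each partner list gives up to 4 genes with the smallest adjusted p plus Atf4, Ppp1r15a, Pabpc1 and Pdcd4. Any member may be named in its complex. The fit was tested on simulated data in 6 runs (200 of 12067 to 12082 genes changed). These runs replaced a first run with a higher share of false calls, after that result was seen. Changes of 1.1-fold were recovered in 40.7% of genes, of 1.25-fold in 82.7%, of 1.5-fold in 93.7% and of 2-fold in 99.7%. Of the calls in these 6 runs 4.9% were false, a share that leaves out the first run. Data with most genes changed were not simulated. Whether these rates hold for the calls given here was not tested. Alternatives were DESeq2 1.42.0, RLE or upper-quartile factors, a mean of at least 5 CPM, no filter, a replicate block and each library left out. Figures were drawn with matplotlib 3.10.9.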

Additional observations from a re-analysis of the deposited data

Results flagged for a closer look

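Dixon's test at the 95% level (critical value 0.71 for 5 samples) was applied to 130 groups of 5 libraries, and 4 held a library that stood apart, where chance gives about 1 in 20. Control library 5 was low for Eif3k (82.0 CPM, next 93.1 CPM) and for Eef1d (78.8 CPM, next 87.5 CPM). Library 1 of the siRNA group was high for Eif3g (97.5 CPM, next 91.9 CPM), and siRNA library 4 was low for Eef2 (1704 CPM, next 1740 CPM).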

How the results depend on the processing

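Members called higher numbered 38 to 43 and lower 10 to 11 over all alternatives, and the partner lists 38 to 43 and 13 to 16. All genes called numbered 3947 to 4581 higher and 3806 to 4530 lower. The largest shift of the all-gene median was to -0.018 on the log2 scale, with upper-quartile factors. Kdr in siRNA libraries was at 186 CPM with raw library totals.

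Of 1023 values of the 64 tested members under the alternatives, 979 kept direction and side of the threshold, 19 passed no longer, 6 passed newly and 19 reversed, all of the last in genes that do not pass. Eif1b was -0.00144 with RLE factors and with DESeq2, -0.0152 with upper-quartile factors and -0.00716 with a mean of at least 5 CPM. Eif3m was -0.00738 with upper-quartile factors. With each library left out, Eif1b ran from -0.0259 to 0.0228, Eif3m from -0.00605 to 0.0299, Eif3j2 from -0.142 to 0.356 and Eif4ebp3 from -0.0236 to 0.0836. The cause was not tested. Eif4a2 and Eif1ax lost their calls with upper-quartile factors (adjusted p = 0.0977 and 0.12), DESeq2 (0.0581 and 0.0544) and a mean of at least 5 CPM (0.0512 and 0.0631), and Eif3h without control library 2 (0.0557) or 3 (0.055). Without 1 library, Eif4a2 lost its call for control 2 or 4 and siRNA 3 or 4 (0.0563 to 0.141), and Eif1ax for control 2 or 5 and siRNA 1, 2, 3 or 4 (0.0505 to 0.0991). Of genes not past the threshold, Eef1b2, Eef1akmt1 and Eif2b2 passed without 1 library (0.015 to 0.0485).

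Same-numbered libraries did not deviate together (correlations -0.194 to -0.021 over 10325 genes, and 0 of 10 libraries correlated best with their own number). No pairing by number was thus seen, but the labels do not say whether samples were paired, and this check cannot settle it. With the replicate number as a block, 39 members were higher and 11 lower, and the only member whose call changed was Eif1ax (adjusted p = 0.0538). Depth limits the low members: the SE of the log2 fold change was 0.298 for Eif3j2, at about 1 CPM, and 0.0221 for Eef2.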
